A study of Mus musculus with 24 samples.

Results

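Keratins are the intermediate filament proteins of epithelia, and the 52 keratin genes named on the array, of 24096 named genes, were followed here in cultured mouse alveolar cells. They were found as every probe not used as a control whose gene name starts with Krt and a digit, which leaves out keratin-associated proteins, and they had 68 probes. Where a gene had several probes, the probe with the highest mean log2 signal over all 24 arrays stood for it. The series holds 24 one-colour arrays of primary murine alveolar type II cells, the surfactant-making cells of the alveolus, grown at an air-liquid interface for 3 days until they formed a monolayer. In one experiment of 16 arrays, 4 samples each received 100 µM NaHS, a fast donor of hydrogen sulfide, for 24 h, DMEM vehicle for 24 h, NaHS for 6 h, or vehicle for 6 h. In the other experiment of 8 arrays, all samples received 100 µM GYY4137, a slow donor, for 24 h, 4 of them in 85% O2 (hyperoxia) and 4 in 21% O2 (normoxia), and no donor-free sample of that experiment was analysed here. The labels do not say whether replicates came from separate animals or cultures, so p-values measure the spread between these samples, which may be technical.

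Each level below is the log2 signal of a probe minus the log2 of the 75th percentile of its array, so that 0 is the 75th percentile and negative values lie below it. A probe counted as above background on an array where the scanner software called it well above background. The percentage of spots above background ran from 55.8% to 58.3% on slide 1, which held replicates 1 and 3 of every group of the NaHS experiment, and from 68.5% to 74.5% on slide 2, which held replicates 2 and 4. All samples in 85% O2 were on slide 4 (70.3% to 78.2% of spots) and all in 21% O2 on slide 3 (72.1% to 77.7%), so oxygen and slide cannot be told apart in the GYY4137 experiment. Of 10 markers of type II cells, 8 or 9 were above background on all 4 arrays of each group, among them the surfactant gene Sftpc, while the phosphate transporter Slc34a2 was above background on 0 arrays in every group but 21% O2. The number of arrays limits the precision of every value. In such bulk samples, fewer cells of a type and less RNA per cell cannot be told apart.

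Keratins pair a type I (acidic) with a type II (basic) chain to build filaments, and the pair made differs with the epithelium. Krt8 and Krt18 form the filaments of simple, single-layered epithelia such as the alveolus, where Krt8 also marks a transitional state between type II and type I cells after injury. Krt5 and Krt14 mark the basal layer of stratified epithelia and of the airway, Krt6a, Krt6b, Krt16 and Krt17 are induced in wounded epidermis, Krt1 and Krt10 belong to its upper layers, and a large group builds the hair shaft and its root sheaths. The 52 genes comprised 7 simple, 3 basal, 4 wound, 12 suprabasal and 24 hair keratins, with 2 others, Krt42 and Krt222. By mm9 probe coordinates, 27 genes of type I lay on chromosome 11, and 23 of type II lay on chromosome 15 together with Krt18, the type I gene outside the chromosome 11 cluster, while the probe used for Krt85 had no coordinates in the files.

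The probes of paralogous hair keratins bear on how the values of Krt81, Krt83 and Krt85 can be read, since the Krt83 probe shared 51 of 55 overlapping bases with the Krt81 probe, and the probe used for Krt85 is also close to both in sequence. The Krt81 probe lies at chr15:101290583-101290642 (minus strand, mm9), and its annotation also lists Krt83 and Krt86 transcripts. The probe named Krt83 lies at chr15:101263556-101263615 (minus strand, mm9) and corresponds to Krt87 in RefSeq. The signals of these genes may therefore hold RNA of their near copies and are uncertain as levels of a gene. The Krt6b probe also lists Krt6a, and the same limit holds for that pair.

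Krt28, Krt34, Krt71 and Krt84, 4 of the 5 keratins that differed between the oxygen levels below, are shown by their promoter windows, taken from RefSeq on GRCm38.p6, all on the minus strand and written from 250 bases before to 50 bases after the gene's start. Capitals mark the motif TATAAA on either strand.
Krt28, chr11:99374854-99375153: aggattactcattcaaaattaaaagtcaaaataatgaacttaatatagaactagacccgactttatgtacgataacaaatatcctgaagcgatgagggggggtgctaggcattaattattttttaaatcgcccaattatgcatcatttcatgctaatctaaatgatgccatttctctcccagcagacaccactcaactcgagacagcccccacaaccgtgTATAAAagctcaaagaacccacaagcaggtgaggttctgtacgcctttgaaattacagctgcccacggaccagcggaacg
Krt34, chr11:100041505-100041804: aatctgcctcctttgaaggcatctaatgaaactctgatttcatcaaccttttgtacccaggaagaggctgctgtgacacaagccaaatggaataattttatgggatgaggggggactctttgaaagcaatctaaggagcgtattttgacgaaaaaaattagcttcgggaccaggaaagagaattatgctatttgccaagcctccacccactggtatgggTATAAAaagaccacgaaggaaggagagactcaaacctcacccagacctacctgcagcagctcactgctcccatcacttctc
Krt71, chr15:101743048-101743347: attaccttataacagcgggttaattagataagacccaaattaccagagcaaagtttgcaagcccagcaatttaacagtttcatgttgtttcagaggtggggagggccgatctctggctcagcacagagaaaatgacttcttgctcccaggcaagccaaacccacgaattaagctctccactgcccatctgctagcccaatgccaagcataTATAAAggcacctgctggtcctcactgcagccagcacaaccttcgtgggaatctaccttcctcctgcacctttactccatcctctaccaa
Krt84, chr15:101532771-101533070: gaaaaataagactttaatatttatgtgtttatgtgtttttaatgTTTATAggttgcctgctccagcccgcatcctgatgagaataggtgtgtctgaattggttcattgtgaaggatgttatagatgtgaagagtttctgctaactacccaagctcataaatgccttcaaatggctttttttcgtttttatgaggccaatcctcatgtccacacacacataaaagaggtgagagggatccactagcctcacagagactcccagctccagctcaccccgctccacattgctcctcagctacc
The motif began 30 bases before the start in Krt28, 31 in Krt34 and 40 in Krt71, on the gene's strand, whereas the match in Krt84 lay 206 bases before the start on the opposite strand. Windows were found for 35 of the 52 keratins, and these 36 windows held TATAAA on either strand in 19 cases (52.8%), against 13.6% of all 32851 promoters. Among hair keratins, 13 of 17 windows (76.5%) held it, against 2 of 5 simple, 3 of 11 suprabasal and 0 of 2 basal keratins. On the gene's strand, with its first base 20 to 40 bases before the start, 9 of 17 hair windows (52.9%) and 13 of 36 keratin windows (36.1%) held it, against 1.99% of all promoters. The motif TGANTCA was found on either strand in 2 of 36 keratin windows (5.56%), against 7.81% of all promoters, and GGGCGG in 2 of 36 (5.56%), against 35.7%. Each of these is a match of letters only.

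Across the 24 arrays, simple and wound keratins were above background on every array, while most hair keratins were not. All 7 simple and all 4 wound keratins were above background on all 24 arrays, as were 2 of 3 basal, 6 of 12 suprabasal, 7 of 24 hair and both other keratins, which gave 28 of 52 genes. On some arrays 23 genes were above background, and 1, Krt26, on none. The count of keratins above background on all arrays of a slide was 29 on slide 1, 38 on slide 2, 37 on slide 3 and 38 on slide 4, and for hair keratins it was 7, 14, 14 and 14. By group, the count above background on all 4 arrays was 31 with NaHS at 24 h, 30 with vehicle at 24 h, 30 with NaHS at 6 h, 29 with vehicle at 6 h, 38 in 85% O2 and 37 in 21% O2. Detection of the dim hair keratins thus moved with the slide, and the part of slide in a difference between the experiments was not tested.

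**Figure D1:**
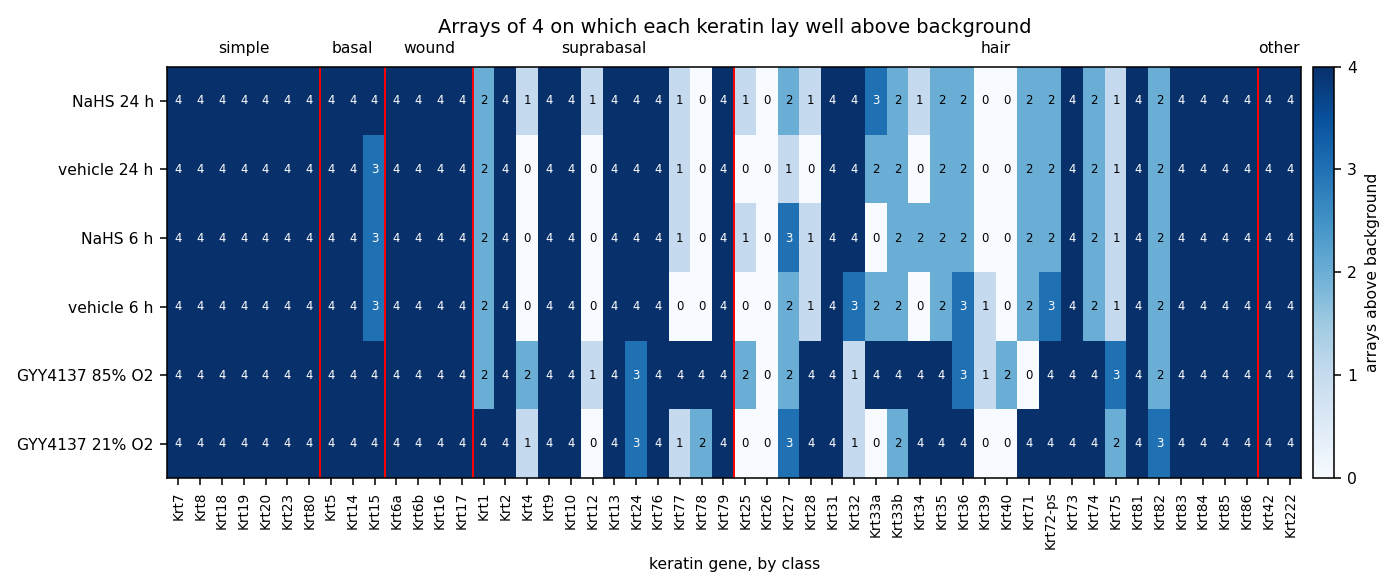
Number of arrays of 4 (colour) on which the probe of each keratin (columns, by class) was well above background in the 6 groups (rows). Simple and wound keratins are above background on every array, and the partly detected genes lie mostly among the suprabasal and hair keratins.

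The simple keratin pair Krt8 and Krt18, partners in the filaments of alveolar cells, had levels that overlapped between the groups of each comparison, except for Krt8 at 24 h against 6 h with NaHS. Krt8 read 7.92, 7.67, 7.81 and 7.78 with NaHS at 24 h, against 8.02, 6.96, 7.96 and 7.81 with vehicle at 24 h. At 6 h it read 7.95, 7.96, 7.96 and 8.16 with NaHS, against 7.91, 7.88, 7.95 and 8.09 with vehicle. In the GYY4137 experiment it read 7.05, 7.44, 7.44 and 7.46 in 85% O2, against 7.07, 7.04, 7.26 and 7.28 in 21% O2. NaHS and vehicle overlapped at each time, as did the oxygen groups, and vehicle replicate 2 at 24 h lay lowest in the NaHS experiment. With NaHS, all 24 h values of Krt8 lay below all 6 h values, with a difference of -0.21 ± 0.19 (SE, 95% interval -0.61 to 0.19) that did not pass the test. Krt18 averaged 8.55 ± 0.24 with NaHS and 8.70 ± 0.35 with vehicle at 24 h, 8.70 ± 0.15 with NaHS and 8.73 ± 0.27 with vehicle at 6 h, and 8.04 ± 0.18 in 85% O2 and 7.91 ± 0.14 in 21% O2 (SD, n = 4 each). The ranges of Krt18 overlapped within every pair.

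Krt7 and Krt19, keratins of simple and ductal epithelia, were likewise above background on every array. Krt7 read 6.50, 5.92, 6.58 and 6.60 with NaHS at 24 h, against 6.39, 4.49, 6.52 and 5.87 with vehicle at 24 h. At 6 h Krt7 averaged 6.27 ± 0.28 with NaHS and 6.21 ± 0.39 with vehicle, and it averaged 5.56 ± 0.69 in 85% O2 and 5.07 ± 0.46 in 21% O2 (SD, n = 4 each). The lowest value of Krt7 at 24 h lay in replicate 2 of each group, on slide 2. Vehicle replicate 4, at 5.87, was also low and also on slide 2. Krt19 averaged 6.74 ± 0.30 with NaHS and 6.49 ± 0.77 with vehicle at 24 h, 6.91 ± 0.14 with NaHS and 6.95 ± 0.45 with vehicle at 6 h, and 5.89 ± 0.42 in 85% O2 and 5.51 ± 0.50 in 21% O2. Of the remaining simple keratins, Krt20, known from intestine and urothelium, averaged from 1.16 to 1.43 in the 4 groups of the NaHS experiment, 0.70 in 85% O2 and 0.54 in 21% O2. Krt23 averaged from -0.75 to -0.32 in the NaHS experiment, -1.09 in 85% O2 and -0.93 in 21% O2. Krt80 averaged from 0.12 to 0.30 in the NaHS experiment, -0.10 in 85% O2 and -0.09 in 21% O2.

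The basal keratins had wide spreads between replicates. Krt14 read -0.48, -1.68, -0.19 and 0.80 with NaHS at 24 h, against -0.37, 0.30, 0.20 and 0.40 with vehicle. At 6 h Krt14 read 1.74, 1.80, -1.21 and 1.22 with NaHS, against 1.83, 0.76, -1.14 and 1.02 with vehicle. In the GYY4137 experiment it read -2.68, -2.01, -0.88 and -1.66 in 85% O2, against -1.60, -1.19, 2.27 and 0.23 in 21% O2. Replicate 3 was lowest in both 6 h groups and highest in both oxygen groups. Krt5, its type II partner, averaged -2.43 ± 0.70 with NaHS and -2.30 ± 0.94 with vehicle at 24 h, -2.07 ± 1.20 with NaHS and -1.96 ± 0.97 with vehicle at 6 h, and -1.45 ± 0.23 in 85% O2 and -1.68 ± 0.40 in 21% O2 (SD, n = 4 each). The second probe of Krt5 was above background on 0 of the 24 arrays and averaged from -7.20 to -6.27 over the 6 groups. Krt15, a further basal keratin, was above background on 3 of 4 arrays with vehicle at 24 h and in both 6 h groups, and averaged from -4.20 to -3.76 over the 6 groups.

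The wound keratins were above background in all groups, with Krt17, which is induced in activated keratinocytes, at 3.29, 3.72, 3.18 and 3.41 with NaHS at 24 h, against 3.73, 2.79, 4.01 and 3.07 with vehicle at 24 h. At 6 h Krt17 averaged 3.19 ± 0.67 with NaHS and 2.81 ± 0.41 with vehicle, and it averaged 2.45 ± 0.66 in 85% O2 and 2.05 ± 0.60 in 21% O2 (SD, n = 4 each). Krt16 averaged 0.49 ± 0.43 with NaHS and 0.30 ± 0.41 with vehicle at 24 h, 0.56 ± 0.77 with NaHS and 0.63 ± 0.74 with vehicle at 6 h, and -0.10 ± 0.23 in 85% O2 and 0.06 ± 0.40 in 21% O2. The groups overlapped for both genes. Krt6a, a type II partner of Krt16 in wounds, averaged -2.72 ± 0.39 with NaHS and -2.62 ± 0.29 with vehicle at 24 h, and -2.45 ± 0.65 in 85% O2 and -3.48 ± 0.70 in 21% O2, where the oxygen groups did not overlap. Krt6b averaged from -3.34 to -2.87 in the NaHS experiment, -3.78 ± 0.43 in 85% O2 and -3.96 ± 0.35 in 21% O2.

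**Figure D2:**
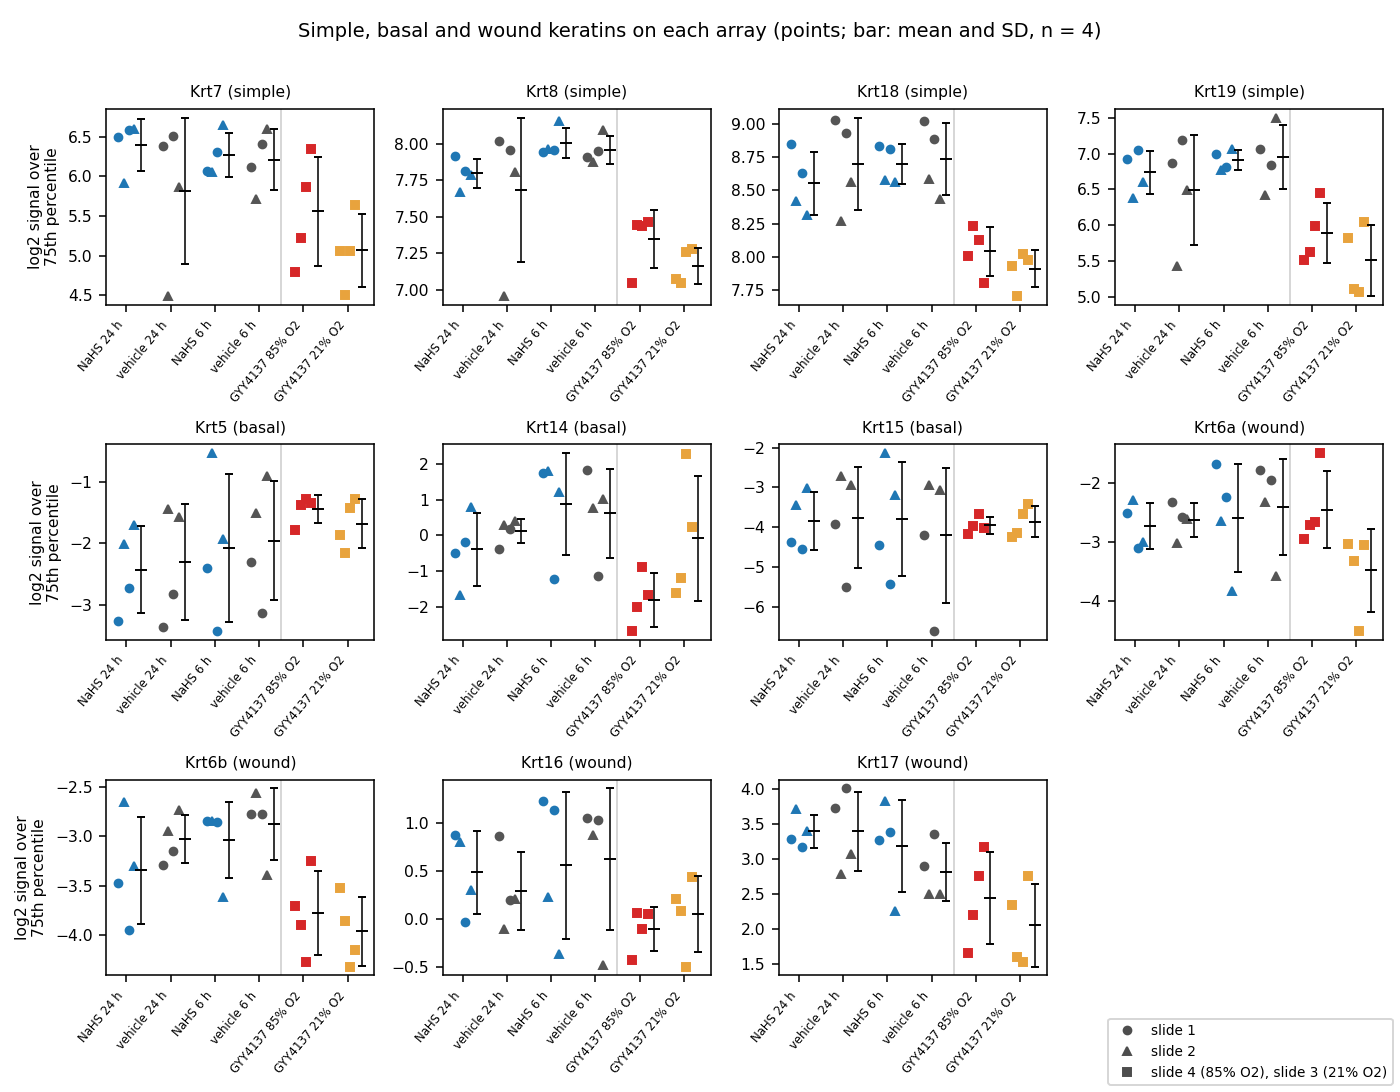
Levels (log2 signal over the 75th percentile of the array) of simple, basal and wound keratins in the 6 groups, with a point for each array (marker shape for the slide) and bars for mean ± SD (n = 4). NaHS overlaps vehicle at each time, and 85% O2 overlaps 21% O2, for Krt8, Krt18, Krt7 and Krt19, and Krt14 spans from -2.68 to 2.27 in the GYY4137 experiment.

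Of the hair keratins, the 3 with the highest mean signal were Krt85, Krt81 and Krt73, which build the hair shaft (Krt85 and Krt81) and the inner root sheath (Krt73). Krt85 averaged 5.35 ± 0.28 with NaHS and 5.07 ± 0.56 with vehicle at 24 h, 5.39 ± 0.15 with NaHS and 5.36 ± 0.26 with vehicle at 6 h, and 5.13 ± 0.45 in 85% O2 and 4.63 ± 0.32 in 21% O2 (SD, n = 4 each). The other Krt85 probes read -1.46 and -1.45 in vehicle at 6 h, against 5.36 for the probe used, and these signals also carry the probes' own affinity and any binding of near copies, so the levels printed are those of the probe used. Krt81 averaged from 1.90 to 2.38 in the NaHS experiment, 1.52 ± 0.83 in 85% O2 and 0.93 ± 0.47 in 21% O2. Krt73 averaged from -0.20 to 0.06 in the NaHS experiment, -0.43 ± 0.20 in 85% O2 and -0.81 ± 0.15 in 21% O2. Of 14 keratins with several probes, all probes of 3 (Krt8, Krt10 and Krt85) were above background on 24 arrays, and 5 had one probe above background on 24 arrays and another on 8 or fewer. Outside the classes, Krt222 averaged from 2.10 to 2.68 in the NaHS experiment, 3.41 in 85% O2 and 3.32 in 21% O2, and Krt42 averaged from 3.91 to 4.58, 3.39 in 85% O2 and 3.16 in 21% O2. Of the suprabasal keratins, Krt10 averaged from -0.62 to -0.30 in the NaHS experiment, -0.05 in 85% O2 and -0.39 in 21% O2. Krt13, a keratin of internal stratified epithelia, averaged from 1.12 to 1.30, 0.22 in 85% O2 and 0.03 in 21% O2. The second probe of Krt42 read -7.83 in vehicle at 6 h, against 4.58 for the probe used. In the same group the second probe of Krt222 read -7.60, against 2.10, and that of Krt13 -6.52, against 1.12. These second probes were above background on 0 (Krt222) and 2 (Krt13) of 24 arrays, so the levels of these genes also hold for the probe used only.

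No keratin passed the test in a comparison of NaHS with vehicle, which asked what a fast sulfide donor does to these cells. The counts in this paragraph come from fits without slide as a block. The slide difference, called for 47.2% of all genes, therefore widened their spread and made the p-values conservative. With slide as a block, 0 keratins were called in these comparisons as well. At 6 h, 0 of 42 keratins tested were called (limma on all genes of the experiment, Benjamini-Hochberg adjusted p under 0.05), against a background of 0.0% of 33264 genes. At an unadjusted p under 0.05 the counts were 0 keratins and 197 genes (0.592%). At 24 h, 0 of 42 keratins were called, again against 0.0% of 33264 genes, and 0 keratins and 758 genes (2.28%) had an unadjusted p under 0.05. The NaHS effect at 24 h minus that at 6 h was called for 0 of 42 keratins, against 0.0% of genes, and 0 keratins and 358 genes (1.08%) had an unadjusted p under 0.05. The median keratin difference was -0.03 at 6 h, with 20 of 42 higher with NaHS, and -0.08 at 24 h, with 17 of 42 higher.

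The intervals set what sizes these comparisons could miss. At 24 h the NaHS minus vehicle difference was 0.11 ± 0.19 for Krt8 (SE, 95% interval -0.29 to 0.51) and -0.14 ± 0.18 for Krt18 (-0.54 to 0.25). For Krt7 it was 0.58 ± 0.37 (-0.22 to 1.38), and for Krt14 -0.52 ± 0.74 (-2.11 to 1.07). The Krt7 difference was 0.09 on slide 1 alone and 1.08 on slide 2 alone. At 6 h it was 0.05 ± 0.19 for Krt8 (-0.35 to 0.45) and -0.04 ± 0.18 for Krt18 (-0.43 to 0.36). The interval lay within 2-fold in either direction for 21 of 42 keratins at 6 h, against 58.0% of all genes, and for 17 of 42 at 24 h (40.5%, against 55.3%). With slide as a block these counts were 32 and 27 of 42.

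**Figure D3:**
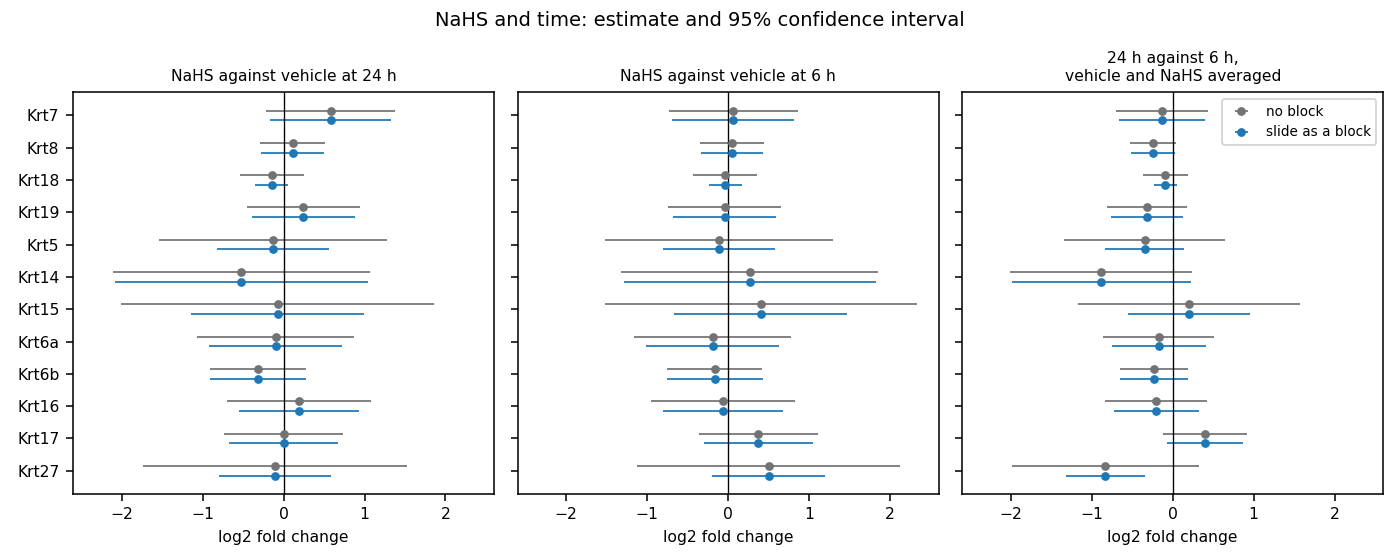
Differences of log2 level with 95% intervals for 12 keratins, without a block (grey) and with slide as a block (blue), for NaHS against vehicle and for 24 h against 6 h. With the block the interval is narrower for 11 of the 12, Krt6b keeping about the same width, and Krt27 alone of the keratins passed the test when slide was a block, for 24 h against 6 h.

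Without a block, no keratin passed the test between 24 h and 6 h of exposure. In vehicle 0 of 42 keratins were called, against a background of 0.815% of genes, and with NaHS 0 of 42, against 0.0271%. Averaged over vehicle and NaHS, which is not independent of those comparisons, 0 of 42 were called, against 4.15% of genes, and 11 of 42 were higher at 24 h, with a median of -0.13. At an unadjusted p under 0.05 there were 0 keratins in each of the 3, against 11.3% of genes in vehicle, 7.69% with NaHS and 15.9% averaged. Among named members, the averaged difference was -0.88 ± 0.52 for Krt14 (SE), -0.24 ± 0.13 for Krt8 and 0.40 ± 0.24 for Krt17. With slide as a block, 1 keratin was called, against 7.04% of genes: Krt27, a type I keratin of the inner root sheath, at -0.83 ± 0.23 (adjusted p = 0.0445, limma). Krt27 averaged -6.33 ± 1.19 with NaHS and -6.23 ± 1.24 with vehicle at 24 h, and -5.20 ± 0.75 with NaHS and -5.70 ± 1.23 with vehicle at 6 h, and was above background on 2, 1, 3 and 2 of the 4 arrays. Without the block its adjusted p was 0.552, and its call with the block held in 4 of the 16 fits that left out 1 array. Beside these, the surfactant gene Sftpc averaged 2.27 ± 1.24 with NaHS and 1.11 ± 0.98 with vehicle at 24 h, and 4.02 ± 1.49 with NaHS and 3.65 ± 0.87 with vehicle at 6 h.

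The slides of the NaHS experiment differed for many keratins, with the groups balanced over both. In a fit with the groups and slide, 18 of 42 keratins (42.9%) differed between slide 2 and slide 1, against 47.2% of all genes, 15 of them higher on slide 2. Krt71 read 3.56 ± 0.16 higher and Krt5 1.48 ± 0.23 higher on slide 2 (log2, SE), and the counts were 11 of 18 hair, 2 of 7 simple, 2 of 3 basal and 0 of 4 wound keratins. Krt71, a type II keratin of the inner root sheath, was above background on slide 2 only in the NaHS experiment, at 2 of 4 arrays in each group. The difference was -0.15 for Krt8 and 0.53 for Krt14, neither of which passed the test. Of the variance between the arrays of this experiment, component 1 held 65.0%. The cause of the slide difference was not tested.

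In the GYY4137 experiment, the keratins called between 85% O2 and 21% O2 without a block were all hair keratins. With the replicate number as a block, the basal Krt14 and the suprabasal Krt76 were also called, as given below. Of 45 keratins tested, 5 were called (11.1%), 4 higher and 1 lower in 85% O2, against a background of 15.5% of 34652 genes (9.90% higher, 5.64% lower), so that the share was no larger than that of all genes. By class the counts were 5 of 19 hair, 0 of 7 simple, 0 of 3 basal, 0 of 4 wound, 0 of 10 suprabasal and 0 of 2 other keratins. Of the hair keratins counted, Krt33a and Krt71 were above background in only 1 oxygen group. The split of 4 higher to 1 lower was 2 to 2 with each array centred on its median, 3 to 2 with normexp background correction and 3 to 2 with all probes of a gene averaged. Median centring moved the median difference of all genes by 0.137. In the 75th-percentile scaling 33 of 45 keratins were higher (73.3%, against 55.2% of genes), and with median centring 30 of 45 (66.7%, against 42.8%). Among the 34 keratins above background on all 8 arrays, 3 were called (8.82%, against 15.7% of genes), all of them hair keratins. At an unadjusted p under 0.05 there were 14 of 45 keratins (31.1%), against 34.1% of genes. Since slide 4 held all 85% O2 samples and slide 3 all 21% O2 samples, each of these differences may hold a slide difference.

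Krt33a, a type I hair keratin, had the largest fitted difference among those called. It read -4.95, -4.34, -4.60 and -3.89 in 85% O2, against -6.80, -6.40, -7.18 and -8.09 in 21% O2. All 85% O2 values lay above all 21% O2 values, and the probe was above background on 4 arrays in 85% O2 and 0 in 21% O2. On each 21% O2 array the level was taken as the higher of the probe's own signal and the lowest signal of any probe above background. On that reading the signal was 3.58-fold higher in 85% O2 (adjusted p = 0.00475 for the fitted difference, limma). The fold is not a firm minimum, since brighter probes could also fail, such as Krt27 at -5.33 in replicate 1 in 21% O2. Krt33a passed the filter on dim probes only through the group in which it was high. Its p-value therefore rests on readings not above background in 21% O2. In the NaHS experiment Krt33a averaged between -5.87 and -5.40.

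Krt71 went the other way. It read -6.10, -6.64, -6.15 and -6.57 in 85% O2, against -4.57, -4.92, -4.74 and -4.39 in 21% O2. The groups did not overlap, with 0 arrays above background in 85% O2 and 4 in 21% O2, so it too passed the filter through 1 group. With the dim side set in the same way, Krt71 was 2.40-fold lower in 85% O2, again not a firm minimum (adjusted p = 0.00209 for the fitted difference, limma). This p-value likewise rests on readings not above background, here in 85% O2. The same gene differed between slides of the NaHS experiment by 3.56, as given above.

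Krt84, a type II hair keratin, read -3.31, -3.90, -3.23 and -3.13 in 85% O2, against -4.11, -4.60, -4.73 and -4.38 in 21% O2. The groups did not overlap, and the difference was 1.06 ± 0.21 (SE, 95% interval 0.59 to 1.54, adjusted p = 0.0152, limma). In the NaHS experiment, where every array was above background, Krt84 averaged from -4.50 to -3.73 and differed between slides by -0.005 ± 0.26. Krt34, a type I hair keratin, read -3.50, -3.83, -4.05 and -3.41 in 85% O2, against -4.04, -5.11, -5.30 and -4.66 in 21% O2. The groups of Krt34 overlapped at one array each (the lowest in 85% O2 was -4.05 and the highest in 21% O2 -4.04), with a difference of 1.08 ± 0.28 (0.43 to 1.73, adjusted p = 0.0376). Krt28, a type I keratin of the inner root sheath, read -5.01, -5.18, -5.11 and -4.82 in 85% O2, against -5.40, -5.73, -5.70 and -5.81 in 21% O2. The groups did not overlap and the difference was 0.63 ± 0.14 (0.32 to 0.94, adjusted p = 0.0209, limma). The second probe of Krt28 was above background on 0 of the 24 arrays and differed by 0.16.

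Krt33a and Krt71 were called in each fit that left out 1 array and also with no filter on dim probes. In each gene, however, no value of one oxygen group was well above background. Their fitted sizes are thus not measured on both sides, and these repeated calls share that limit. Krt84 lost its call without 85% O2 replicate 3 (adjusted p = 0.0514), Krt28 without 85% O2 replicates 3 or 4 or 21% O2 replicates 2 or 4 (adjusted p up to 0.0595), and Krt34 without any array but 21% O2 replicate 1. Between 2 and 7 keratins were called when 1 array was left out, with 2 without 85% O2 replicate 3, 3 without 85% O2 replicate 4 or 21% O2 replicates 2 or 4, and 7 without 21% O2 replicate 1. Among other processing choices, Krt28 passed in 3 of 8 and Krt34 in 3 of 8. With normexp the difference of Krt28 was 0.08 (adjusted p = 0.567) and that of Krt34 0.43 (adjusted p = 0.0705). Krt33a ranged from 0.55 to 2.67 and Krt71 from -1.90 to -0.57 over those choices, all called.

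Same-numbered arrays of the oxygen groups deviated together only weakly, with correlations of 0.18 to 0.26, against -0.22 to 0.17 for differently numbered ones. The replicate number also matched the array's position on its slide. Paired samples and shared position therefore cannot be told apart. With the replicate number as a block 8 keratins were called in place of 5 (6 higher and 2 lower, against 15.1% of genes). Added were Krt14 at -1.74 ± 0.41 (adjusted p = 0.0470, limma, against 0.169 without the block), Krt76, a keratin of the palate, at 0.80 ± 0.17 (0.0368) and Krt33b, a type I hair keratin (0.04997). The same-numbered differences of Krt14 were -1.08, -0.81, -3.15 and -1.89, all lower in 85% O2, and those of Krt76 were 0.45, 1.25, 0.85 and 0.63. Krt33b, above background on 4 arrays in 85% O2 and 2 in 21% O2, differed by 0.89, 2.87, 1.21 and 1.01.

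**Figure D4:**
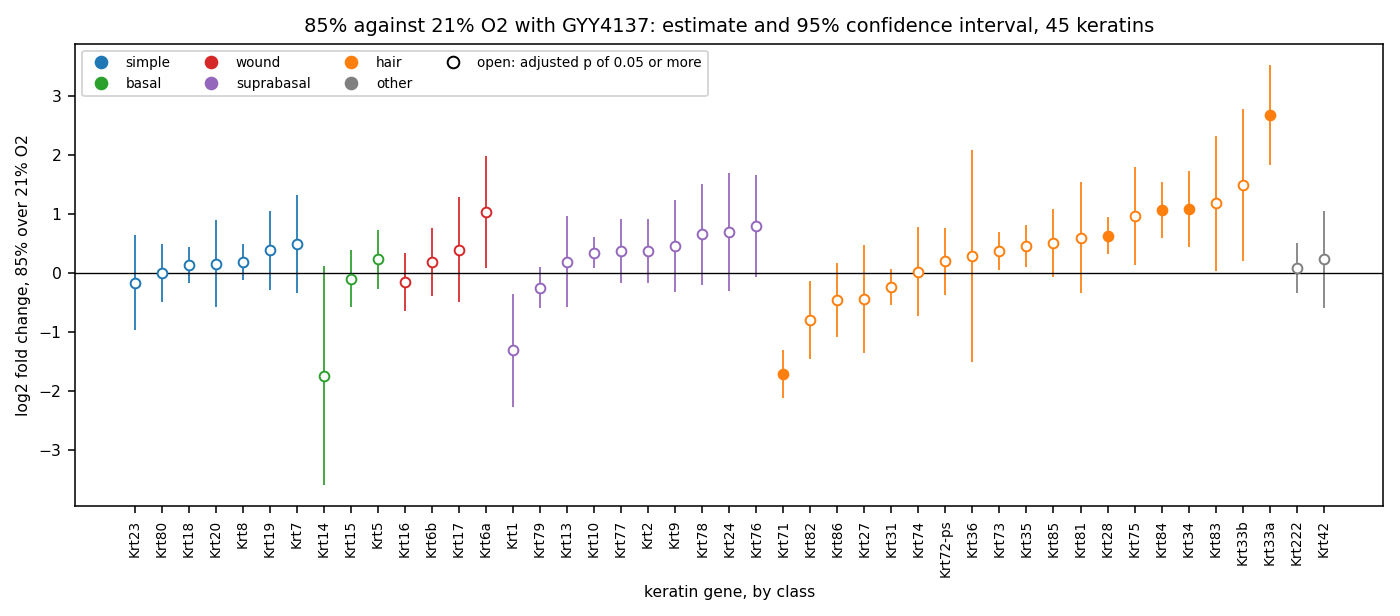
Log2 difference of 85% O2 minus 21% O2 with 95% intervals for the keratins tested, by class, filled where the adjusted p is under 0.05. The filled points are Krt33a, Krt84, Krt34 and Krt28, higher in 85% O2, and Krt71, lower.

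With the probe used for each gene, no simple or wound keratin passed the test between the oxygen levels. Krt8 differed by 0.19 ± 0.14 (SE, 95% interval -0.13 to 0.50, adjusted p = 0.365, limma) and Krt18 by 0.13 ± 0.13 (-0.17 to 0.44, adjusted p = 0.517). The second probe of Krt8 averaged 6.52 ± 0.36 in 85% O2 and 6.00 ± 0.17 in 21% O2, a difference of 0.53. Krt7 differed by 0.49 ± 0.36 (-0.33 to 1.32, adjusted p = 0.366), Krt17 by 0.39 ± 0.39 (adjusted p = 0.506) and Krt6a by 1.03 ± 0.42 (0.08 to 1.98, adjusted p = 0.121). Krt6b differed by 0.18 ± 0.25 with the probe used, and by -0.57 when all its probes were averaged (adjusted p = 0.0204, limma). The latter came about because its second probe read -3.66 in 85% O2 and -2.34 in 21% O2. That probe was above background on 4 of 4 arrays in both oxygen groups. In the groups of the NaHS experiment it was so on only 2 or 3 of 4, with SDs from 2.08 to 2.40. Krt1 differed by -1.31 ± 0.42 (adjusted p = 0.0663, limma) and Krt10 by 0.34 ± 0.11 (adjusted p = 0.0772). Krt1 was above background on 2 of 4 arrays in 85% O2 and on 4 of 4 in 21% O2, so its difference is not fully measured. In the NaHS experiment Krt1 read 2.20 ± 0.19 (SE) higher on slide 2 than on slide 1.

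**Figure D5:**
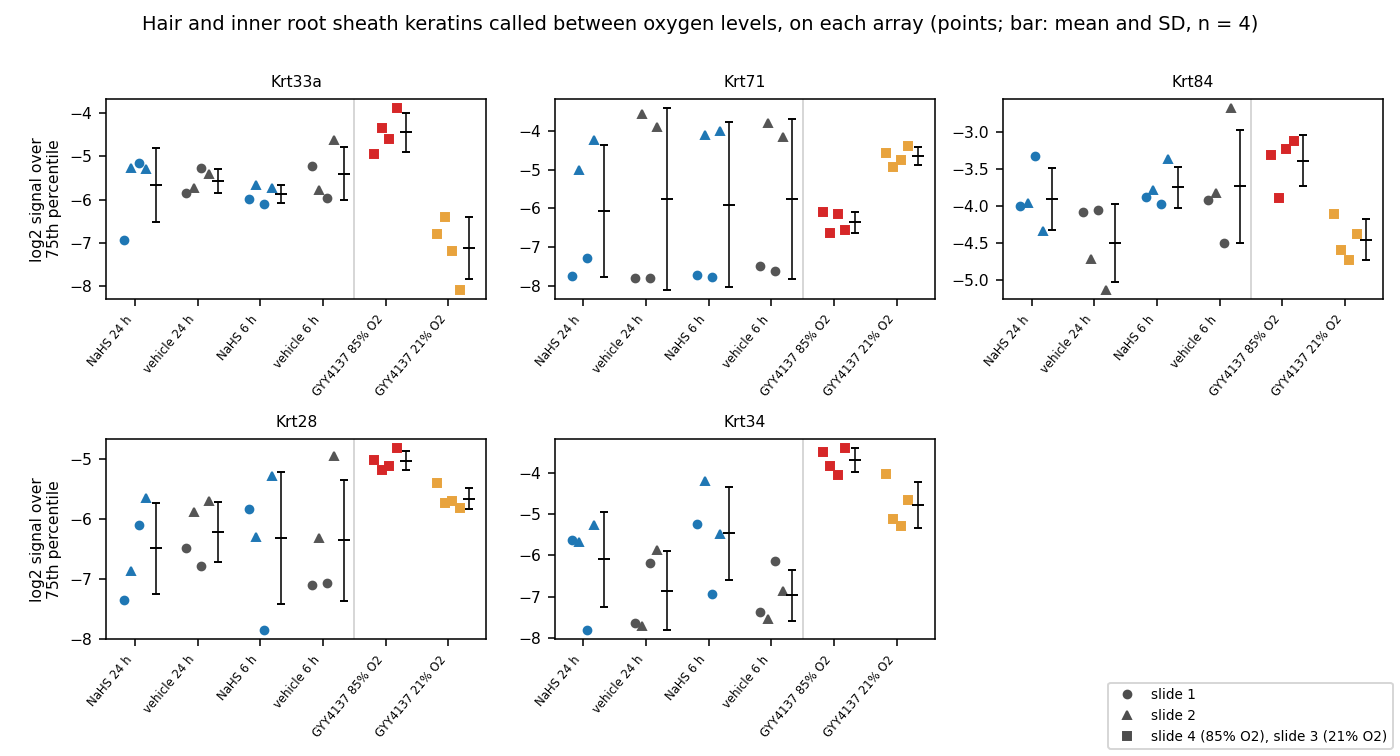
Levels (log2 signal over the 75th percentile of the array) of the called hair keratins in the 6 groups, with points for arrays (shape for the slide) and bars for mean ± SD (n = 4). Krt33a and Krt71 are above background on all 4 arrays of one oxygen group and 0 of the other.

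Genes that work with keratins, taken from lists of known functions, were counted in the same comparison, in which 15.5% of all genes were called (9.90% higher). Of desmosome and hemidesmosome genes, which anchor keratin filaments to cell contacts and the matrix, 2 of 19 were higher in 85% O2, Perp by 1.74 ± 0.21 (4.81 against 3.06, adjusted p = 0.0035, limma) and Dsg2 by 0.66 ± 0.16 (adjusted p = 0.0327), and 17 of 19 had positive differences, with a median of 0.35, beside 55.2% of genes positive. At 24 h against 6 h, averaged over vehicle and NaHS, 0 of 19 were called (4.15% of all genes), and 1 of 19 with slide as a block (7.04% of all genes). Of other intermediate filament genes, 1 of 16 was higher, the neuronal Nefh (1.28 ± 0.31, adjusted p = 0.0288, limma), at dim levels of -4.51 against -5.79. Another 1 was lower, the muscle gene Des (-1.30 ± 0.25, adjusted p = 0.0144, limma), at 1.71 against 3.01. Of transcription factors that regulate keratin genes, 3 of 16 were higher, Hoxc13 (0.83 ± 0.17, adjusted p = 0.0187, limma), which is needed for hair shaft keratins, Grhl3 (1.22 ± 0.27, adjusted p = 0.0238) and Tfap2a (0.88 ± 0.21, adjusted p = 0.0280). Their levels were low, at -4.35 against -5.17 for Hoxc13, -2.13 against -3.34 for Grhl3 and -3.07 against -3.95 for Tfap2a.

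Markers of other cells that the cultures could hold were counted beside these results, against the same 15.5% of all genes called. The mesothelial markers (6 of 6) were above background on all arrays in every group, with summed log2 levels of 6.01 to 6.79 in 85% O2 and 5.95 to 7.15 in 21% O2, and 0 of 6 were called. Of airway basal markers 0 of 5 were called, with 3 to 5 of 6 above background on all 4 arrays of a group and summed levels of 2.41 to 3.004 in 85% O2 and 2.42 to 3.48 in 21% O2, and of squamous markers 1 of 8 (Lor, 0.78, adjusted p = 0.0163). Type II markers summed to 4.95 to 5.30 in 85% O2 and 5.28 to 5.82 in 21% O2, 1 of 9 being lower, Lamp3 (log2 difference -1.05, adjusted p = 0.00449). The transitional marker Cldn4 was higher by 1.56 ± 0.38 (adjusted p = 0.0311), 1 of 10 on that list. Both ciliated cell markers tested were higher, Foxj1 by 1.45 ± 0.34 (adjusted p = 0.0275) and Tppp3 by 0.76 ± 0.19 (adjusted p = 0.0349), with summed levels of the 3 on the array of 0.81 to 1.55 in 85% O2 and -0.36 to 0.20 in 21% O2. All 5 smooth muscle markers and 5 or 6 of 6 fibroblast markers were above background on all 4 arrays of each group. Over the 6 groups the smooth muscle gene Acta2 averaged from 8.27 to 8.73 and the fibroblast gene Col1a1 from 7.01 to 7.41. The fibroblast gene Lum averaged -1.12 in 85% O2 and -0.65 in 21% O2. Of endothelial markers 1 of 4 was higher (Tek, -4.20 against -5.37, adjusted p = 0.0291, limma). Of smooth muscle markers 1 of 5 was lower (Des, above), while 0 of 9 type I, 0 of 6 fibroblast, 0 of 5 macrophage and 0 of 3 club cell markers were called. Their part in the keratin differences was not tested.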

How the data were processed

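Cy3-labelled RNA was hybridised to one-colour Agilent arrays, 24 in all, and the authors deposited the scanner output of Agilent Feature Extraction 10.7.3.1, per the submitters' processing notes. The deposited intensity values (processed signal, with mean signal and local background as the alternative) have the software's background correction, per the file headers. The deposited table of log2 values of the same arrays has medians of 5.947 in the NaHS experiment and 7.0745 in the other, and its scaling steps are not given in the sources used here. The arrays came in a newer and an older annotation of the design, and gene names follow the newer.

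From the 59305 spots that were not controls, spots of a probe were averaged and log2 signals had the log2 of the array's 75th percentile subtracted. Each experiment was fitted separately in limma (version 3.58.1, under R 4.3.3) on genes well above background on at least 4 of its arrays, with 1 mean for each group, and p-values were adjusted over all genes (Benjamini-Hochberg, 0.05). No spot was saturated (0), and 0 keratin values and 0 sample columns were left out. The fit was also run on simulated data with independent noise and no slide difference, so that run does not bear on the slides. Differences are log2 differences of signal, and levels were not compared between genes. As exceptions, the probe standing for a gene and the 3 hair keratins named for their signal were chosen by mean signal. Several probes of a gene are in places given side by side. The summed levels of marker lists add signals of different probes, so bright probes weigh most in them.

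The keratin members, classes, other gene lists and named genes (simple, basal and wound keratins, every keratin called, and the 3 hair keratins of highest signal) were chosen with earlier results of these data known, and keratins named otherwise were chosen after their values were seen. Alternatives were normexp (offset 50), quantile and median scaling, the deposited table, other filters on dim probes, all probes averaged, slide or replicate number as a block, single slides and leaving out each array.

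Replicate numbers in the titles were checked for pairing. In the NaHS experiment the deviations of same-numbered arrays from their group means correlated at 0.54 to 0.75 and those of differently numbered arrays on the same slide at 0.42 to 0.70. Those ranges overlapped. In the GYY4137 experiment same-numbered arrays correlated at 0.18 to 0.26 and others at -0.22 to 0.17. There the number also matched the array's position on its slide, so pairing of samples and position cannot be told apart. One probe sequence is not reported here.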

Additional observations from a re-analysis of the deposited data

Results flagged for a closer look

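In 8 of 120 groups of 4 arrays, 1 array lay far from the others of its group, where chance alone is expected to give about 1 in 20 groups. Krt7 read 5.92 in replicate 2 of NaHS at 24 h, against 6.50 to 6.60 in the others. Krt8 read 8.16 in replicate 4 of NaHS at 6 h, against 7.95 to 7.96, and 7.05 in replicate 1 in 85% O2, against 7.44 to 7.46. Krt6b read -3.62 in replicate 4 of NaHS at 6 h, against -2.86 to -2.84. Krt16 read -0.48 in replicate 4 of vehicle at 6 h, against 0.88 to 1.06. The other 3 arrays were not above background: Krt27 in replicate 1 in 21% O2 (-5.33, against -4.59 to -4.46), Krt33a in replicate 1 of NaHS at 24 h (-6.93, against -5.28 to -5.15) and Krt34 in replicate 3 of NaHS at 24 h (-7.80, against -5.68 to -5.26).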

How the results depend on the processing

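The number of keratins called between NaHS and vehicle was 0 at both times, and for the difference between the times, under every alternative run, leaving out each array included. For 24 h against 6 h averaged over vehicle and NaHS, the count was 0 throughout except with slide as a block, where it was 1 (0 to 1 when 1 array was left out under that block, an alternative chosen after seeing the data). For 85% O2 against 21% O2 the count of 5 became 3 with quantile normalization, 3 with the deposited table, 3 with probes above background on every array (of 34 keratins) and 8 with the replicate block, and it ran from 2 to 7 when 1 array was left out. The replicate block changed no other count of calls. The oxygen difference of Krt6b, not called with the probe used, was called in the opposite direction at -0.57 with all probes averaged. Differences that passed no test changed sign between settings for several keratins, such as NaHS against vehicle at 24 h for Krt8, at -0.12 on slide 1 alone. The cause of the other changes was not tested. Levels of dim keratins, above background on some arrays only, are limited by signal over background.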
